A study of Homo sapiens with 5 samples.

Results

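The genes described here are 38 genes of DNA replication and the G1/S transition, out of 11963 genes with a single symbol on the arrays. They were chosen by name: a probe set, the group of oligonucleotides that reads 1 transcript, was used when the platform annotation gave it 1 of these symbols. Where a gene had several probe sets, the one with the highest mean log2 signal over the 5 arrays stood for it. All 38 genes had a probe set, and 60 probe sets were found for them. They were divided by role into 14 genes of the MCM helicase and origin licensing, 12 of the sliding clamp and polymerases, 4 of nucleotide supply (with the uracil glycosylase gene UNG), 4 of cyclin E and E2F, and 4 of histone handling.

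A cell licenses its origins before S phase: the origin recognition complex with CDC6 and CDT1 loads the ring-shaped helicase made of MCM2 to MCM7. Cyclin E with its kinase and the DBF4-dependent kinase then fire the origins, as CDC45 and the GINS complex turn the loaded ring into a moving helicase. Many of these genes are known targets of E2F transcription factors, so their transcripts are commonly read as a sign of cells that enter or pass through S phase, which for growth-factor-dependent erythroid progenitors depends on cytokine.

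All cells were TF-1, an established line from a human erythroleukaemia whose growth needs added cytokine, kept overnight without growth factor before 6 h with the cytokine. The 5 groups had 1 array each: DbSCL cells with Steel factor (SF, the c-Kit ligand, 20 ng/mL), DbSCL cells with erythropoietin (Epo, dose not given in the labels), and vector cells with SF, with Epo or with GM-CSF (5 ng/mL), the factor the line is kept in. Vector cells carried the retrovirus MSCV-GFP. DbSCL cells carried it with a form of SCL, the product of TAL1, that is defective in binding DNA, in addition to their own gene. No array of factor-deprived cells was analysed here, and whether the infected cells were clones or pools is not given in the sources used here.

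With 1 array a group no comparison has replicates, so no p-value is given and every difference is one between 2 arrays. Signals are log2 values as the authors deposited them, and a difference of 0.58 on this scale is 1.5-fold, one of 1 is 2-fold. Differences of at least 1.5-fold were counted as higher or lower, with the stricter 2-fold count beside it. Signals under 4.45, the 40th percentile of all values, were treated as not measurable and set to that floor. The spread of a single difference, estimated without replicates from how far the DbSCL difference under SF departed from that under Epo, ran from 0.13 to 0.24 from weakly to strongly expressed genes. The vector GM-CSF array had no part in this estimate, so it is only a rough guide for differences from GM-CSF. Of genes above the floor on every array, 51.1% held 1 value on at least 2 arrays, and the effect on the estimate was not tested. On all 5 arrays 35 of the members were above the floor. CCNE2, the second cyclin E gene, was below it on all of them (2.93 to 3.74), so no difference is given for it, and CDC6 and RFC2 were above it on 3 each.

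Other properties of the arrays moved with the groups. The 28S ribosomal RNA signal was 6.55 under SF and 5.80 under Epo, against 7.82 under GM-CSF in vector cells, and 7.07 and 6.69 in DbSCL cells under SF and Epo. The mean of the hybridization controls was 10.29 under SF and 9.85 under Epo, against 10.81 under GM-CSF in vector cells. In DbSCL cells it was 10.82 under SF and 10.04 under Epo. The poly(A) controls read 9.87 under SF and 10.16 under Epo, against 9.73 under GM-CSF in vector cells. In DbSCL cells they read 9.89 under SF and 10.15 under Epo. The gap between the 3' and 5' probe sets of beta-actin, a measure of RNA length, was 3.33 on the DbSCL SF array, 1.89 on the vector SF array and between 2.63 and 3.01 on the others. In both comparisons with GM-CSF, strongly expressed genes as a whole were higher: the median difference over 10 bins of expression ran from −0.13 to 0.24 for SF and from −0.14 to 0.34 for Epo, and 28 of the 35 members lay in the upper 5 bins. The part of these properties in the results below was not tested. Markers of the line were present: KIT, CSF2RB, EPOR, GATA1, TAL1 and CD34 were above the floor on every array, and EPCAM, ALB and CD14, genes of other lineages, on none. COL1A1, CD3D and CD3E, likewise of other lineages, were above it on every array.

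**Figure D1:**
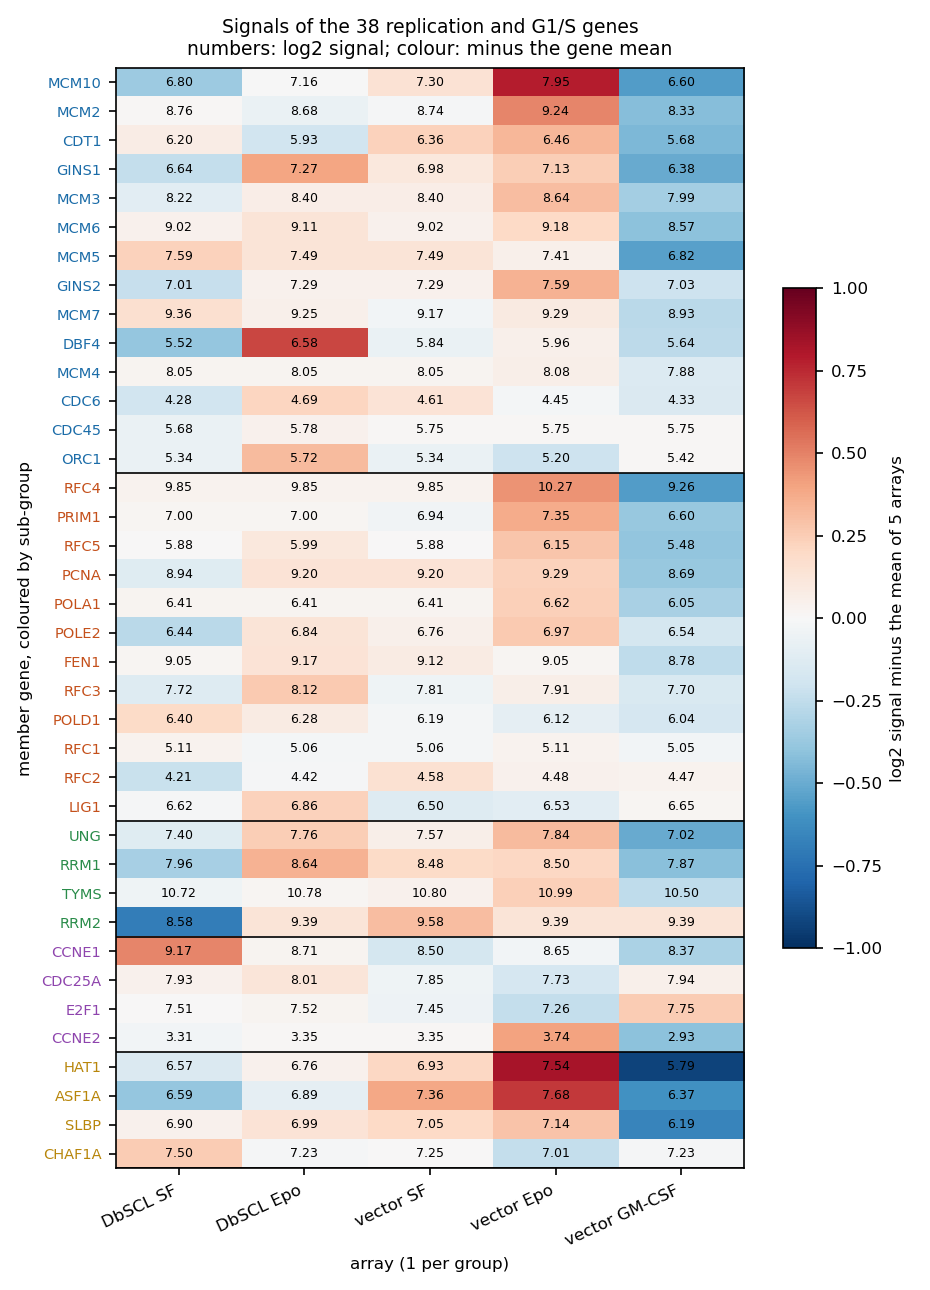
Log2 signal of each of the 38 members (rows, grouped by role) on each of the 5 arrays (columns, 1 array a group). Numbers are log2 signals as deposited and colour is the signal minus the gene's mean over the 5 arrays. In these deposited values the vector GM-CSF column is the lowest of all 5 for 25 of the 35 members above the floor on every array.

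Vector cells under SF or Epo had higher signals for most replication genes than vector cells under GM-CSF. The vector GM-CSF array was the lowest of all 5 for 25 of the 35 members above the floor, against 30.9% of all 7918 such genes. The order GM-CSF, SF, Epo, from low to high, was seen in 25 of the 35, against 28.7% of all such genes. The reverse order was seen in 3, ORC1, E2F1 and CDC25A, against 19.9%. These counts are of deposited values, beside genes at any expression level, and were not recounted after normalization. With cyclic loess normalization (below), MCM4, RFC3 and CCNE1 were lower under SF and Epo than under GM-CSF, and FEN1 under Epo (−0.07). Some steps in the order were small: SF minus Epo was −0.01 for RRM1, −0.03 for MCM4 and −0.06 for RFC1, within the estimated spread. Since RNA came from the whole culture, a larger share of cells in S phase and more transcript per cell cannot be told apart.

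Under SF, 9 of the 37 members that could be compared were 1.5-fold or more higher than under GM-CSF and 0 were lower, against 6.9% higher and 1.29% lower of all 8553 genes. The median member differed by 0.30 (quartiles 0.14 and 0.56), where the median of all genes was 0.00. At 2-fold 1 member was higher, HAT1, against 0.573% of all genes. Above 0 as deposited were 32 members, against 46.2% of all genes at any expression level, so the direction is wider than the count past 1.5-fold. Cyclic loess is meant to remove the dependence on expression level, and how far it did so was not checked. After it, 4 members were 1.5-fold higher (HAT1, ASF1A, SLBP and CDT1), against 5.2% of all genes, while 1.14% of all genes were lower. The median member then differed by 0.17, with 29 members above 0 and 8 below. Quantile normalization left the same 4, against 4.55% of all genes, with 27 members above 0.

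Under Epo the counts were higher. Of 37 members 16 were 1.5-fold or more above GM-CSF and 0 were below, against 13.2% higher and 2.45% lower of all 8581 genes. The median member differed by 0.49, with quartiles of 0.07 and 0.74, and the median of all genes was 0.00. Above 0 were 30 members, against 45.3% of all genes. At 2-fold 4 were higher, HAT1, MCM10, ASF1A and RFC4, against 3.46% of all genes. Loess gave 10 higher and 1 lower (E2F1), against 9.84% and 3.07% of all genes, with a median of 0.28. Quantile normalization gave 8 and 1, against 8.53% and 4.54% of all genes, with a median of 0.25. Above 0 were 27 members with loess and 25 with quantile normalization. The SF and Epo differences share the vector GM-CSF array and are no repeat of each other.

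**Figure D2:**
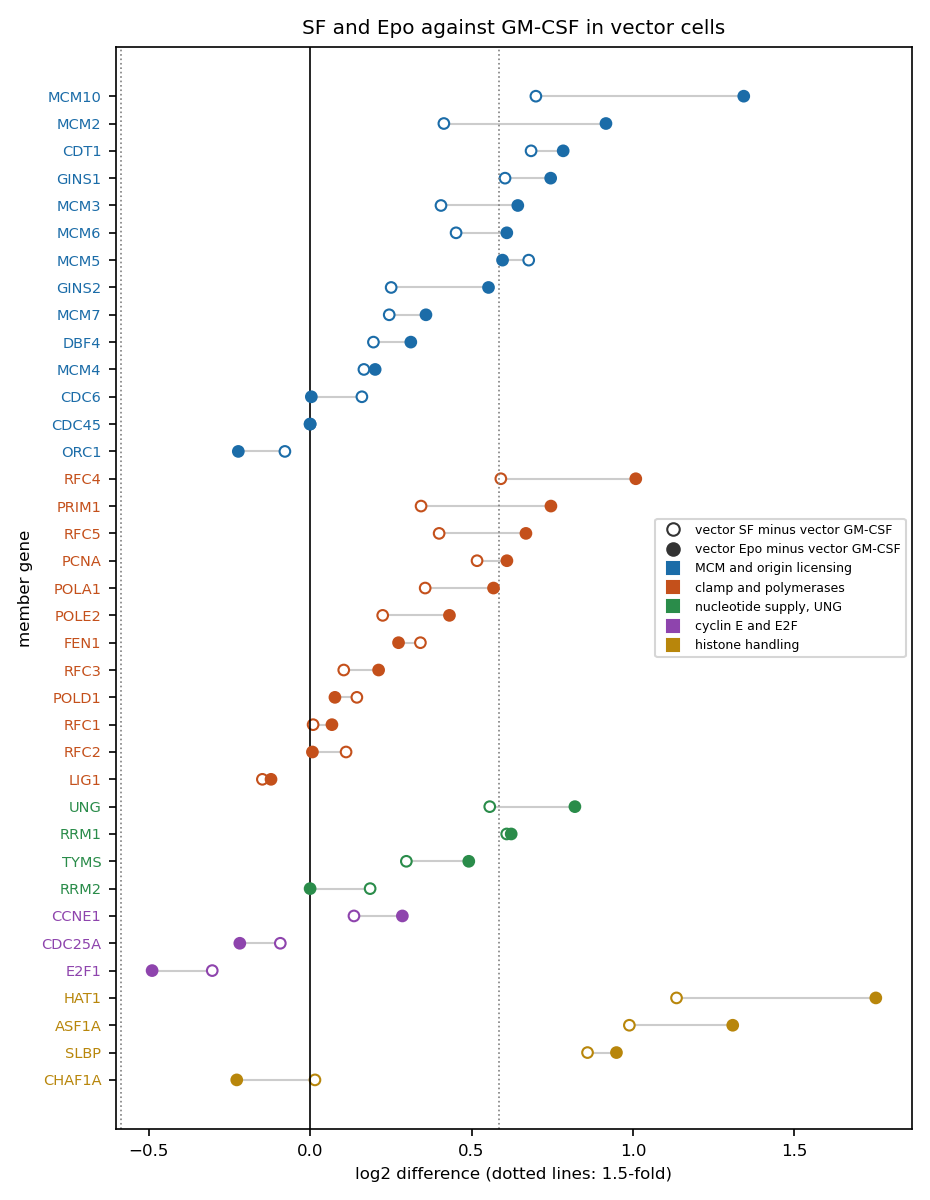
Log2 difference of vector SF (open circles) and vector Epo (filled circles) minus vector GM-CSF for the 37 members with a signal above the floor, coloured by role. Dotted lines mark 1.5-fold; 9 members under SF and 16 under Epo lie right of the line, and E2F1, at −0.30 and −0.49, lies furthest to the left.

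**Figure D3:**
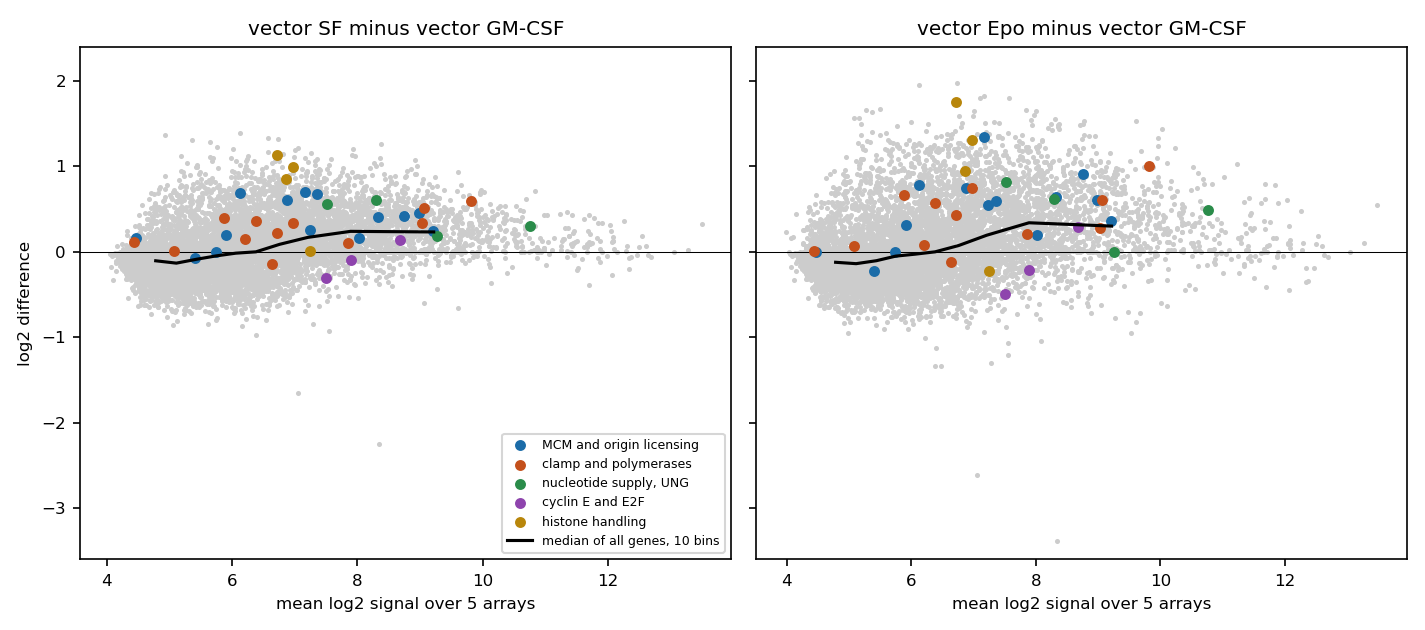
Log2 difference against mean log2 signal over 5 arrays for all genes compared (grey) and the members (coloured by role), for vector SF and vector Epo minus vector GM-CSF. The black line joins the medians of all genes in 10 bins of expression, which reach 0.24 under SF and 0.34 under Epo; HAT1 and ASF1A lie far above it in both panels and E2F1 below it.

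Among the members, the histone handling genes HAT1, ASF1A and SLBP held the largest differences under SF, and HAT1 the largest under Epo. HAT1, an acetyltransferase of newly made histones, read 6.93 under SF and 7.54 under Epo, against 5.79 under GM-CSF. That is 1.13 higher under SF (2.20-fold) and 1.75 higher under Epo (3.37-fold), several times the estimated spread, which leaves out the GM-CSF array. ASF1A, a chaperone that hands histones H3 and H4 to the assembly machinery, read 7.36 under SF and 7.68 under Epo, against 6.37 under GM-CSF. Its differences were 0.99 and 1.31, and its weaker probe set, below the floor under GM-CSF, gave 0.69 and 1.32. SLBP, which binds the stem-loop of histone messages, read 7.05 under SF and 7.14 under Epo, against 6.19 under GM-CSF, or 0.86 and 0.95 higher. CHAF1A, the large subunit of the chromatin assembly factor, stood apart: it read 7.25 under SF and 7.01 under Epo, against 7.23 under GM-CSF. The other CHAF1A probe set above the floor on every array gave 0.00 and −0.24, close to the 0.02 and −0.23 of the brightest, which loess put at −0.13 and −0.41. The histone handling median was 0.92 under SF and 1.13 under Epo, and with loess still 0.85 and 1.02. Histone chaperone genes outside the members had lower medians, 0.09 under SF and 0.21 under Epo, over 9 genes compared. Of these 9, 1 was 1.5-fold higher under SF (11.1%, against 6.9% of all genes) and 2 under Epo (22.2%, against 13.2%).

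Licensing and helicase genes were mostly higher under both cytokines. Their median was 0.33 under SF and 0.57 under Epo, with 12 of 14 above 0 in each. At 1.5-fold were 4 under SF (28.6%, against 6.9% of all genes) and 7 under Epo (50%, against 13.2%). With loess the medians were 0.18 and 0.32. Of this group CDT1 alone then passed 1.5-fold under SF, where 5.2% of all genes did. Under Epo MCM10, CDT1 and GINS1 passed, where 9.84% of all genes did. MCM10, which links the helicase to the polymerase, led with 7.30 under SF and 7.95 under Epo, against 6.60 under GM-CSF (0.70 and 1.34 higher). CDT1, the loading factor, read 6.36 under SF and 6.46 under Epo, against 5.68 under GM-CSF (0.68 and 0.78 higher). GINS1, a subunit of GINS, read 6.98 and 7.13 under SF and Epo, against 6.38 under GM-CSF (0.60 and 0.74 higher).

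The 6 ring subunits were all above 0 as deposited, but by unequal amounts, and with loess MCM4 was below 0 in both comparisons (−0.07 and −0.12). MCM2 read 8.74 under SF and 9.24 under Epo, against 8.33 under GM-CSF, so the Epo difference (0.92) was the wider one (0.41 under SF). MCM5 read 7.49 under SF and 7.41 under Epo, against 6.82 under GM-CSF (0.68 and 0.60), and its second probe set gave 0.37 and 0.52. MCM3 (0.41 and 0.64) and MCM6 (0.45 and 0.61) passed 1.5-fold under Epo alone. Whether SF and Epo differ for them was not tested, and their SF minus Epo differences were −0.24 and −0.16. MCM7 gave 0.24 and 0.36 in its brightest probe set, but 0.56 and 0.9997 in the other, and loess brought the brightest to 0.01 and 0.03. MCM4 had 4 probe sets: the brightest gave 0.17 and 0.20, and among the rest the SF differences ran from 0.00 to 0.45 and those for Epo from −0.46 to 0.09. The direction for MCM4 thus depends on the scaling, and under Epo also on the probe set.

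The remaining licensing genes differed less. GINS2, a second GINS subunit, was 0.25 and 0.55 higher and DBF4, the activator of the CDC7 kinase, 0.20 and 0.31 higher. CDC45 held 1 value, 5.75, on all 3 vector arrays. ORC1, the largest subunit of the origin recognition complex, read 5.34 under SF and 5.20 under Epo, against 5.42 under GM-CSF. Its SF difference of −0.08 was 0.02 with loess. CDC6 was at the floor (4.61 under SF and 4.45 under Epo, against 4.33 under GM-CSF), so its difference of 0.16 under SF is one against the floor.

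Promoter sequences were set beside these values, since the licensing genes include known E2F targets. RefSeq windows of 300 bases on build GRCh38.p14, from 250 before to 50 after the start of the gene, were matched to 35 of the 38 genes. MCM4, MCM5 and CCNE2 had no window. An E2F motif, written TTTGGCGC or TTTCGCGC and searched on both strands, was found in 10 of the 35, against 1.18% of all 27305 such windows. It was in 6 of 12 licensing genes (MCM2, MCM3, MCM6, MCM7, CDC6 and GINS1), in POLA1 and POLE2 of 12 clamp and polymerase genes, in E2F1 and CDC25A of 3 cyclin E and E2F genes, and in 0 of 4 each of nucleotide supply and histone handling. Its core, TTGGCGC or TTCGCGC, was in 16 of the 35, against 5.18% of all. That included 1 of 4 each in nucleotide supply (UNG) and histone handling (CHAF1A). HAT1, ASF1A, SLBP, MCM10 and RFC4, the 5 members with the largest differences under Epo, held neither form in this window. E2F1 and CDC25A, which read lower under SF and Epo, held the longer form. So did MCM2, MCM3, MCM6, MCM7, GINS1, POLA1 and POLE2, which read higher under both as deposited. The core is part of the longer form, so every window with the longer form also holds the core. The shorter motif CCAAT was in 22 of 35 windows, against 35.7% of all. CAGATG, an E-box form, was in 2 of 35 (MCM6 and SLBP), against 14.8% of all. The GATA motif AGATAA, with its variant form TGATAA counted alike, was in 2 of 35 (RFC3 and ASF1A), against 16.6% of all. A match describes the letters and not binding, and the part of E2F in these differences was not tested.

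CDC6 holds the E2F motif and had no 1.5-fold difference. Its signal was above the floor on 3 arrays alone, so this is not a measured lack of difference. The windows below are those of CDC6 and of the 4 genes with the largest differences among members holding the motif. They are written 5′ to 3′ on the strand of the gene, with the motif in capitals. MCM2 has it just past the start, read on both strands with an overlap. MCM6 has 2 such overlapping pairs upstream.
MCM2, chr3:127598161-127598460, plus strand: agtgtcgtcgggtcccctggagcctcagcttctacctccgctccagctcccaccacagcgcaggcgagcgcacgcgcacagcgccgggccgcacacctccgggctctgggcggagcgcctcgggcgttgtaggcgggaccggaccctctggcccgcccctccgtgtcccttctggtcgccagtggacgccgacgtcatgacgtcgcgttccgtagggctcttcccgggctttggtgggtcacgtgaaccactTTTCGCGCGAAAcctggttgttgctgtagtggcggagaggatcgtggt
GINS1, chr20:25407423-25407722, plus strand: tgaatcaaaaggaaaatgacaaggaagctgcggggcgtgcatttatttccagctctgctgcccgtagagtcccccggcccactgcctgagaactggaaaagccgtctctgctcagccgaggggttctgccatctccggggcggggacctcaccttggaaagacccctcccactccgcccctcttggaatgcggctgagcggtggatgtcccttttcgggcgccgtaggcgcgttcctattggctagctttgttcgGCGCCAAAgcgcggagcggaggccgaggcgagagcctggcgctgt
MCM3, chr6:52284693-52284992, minus strand: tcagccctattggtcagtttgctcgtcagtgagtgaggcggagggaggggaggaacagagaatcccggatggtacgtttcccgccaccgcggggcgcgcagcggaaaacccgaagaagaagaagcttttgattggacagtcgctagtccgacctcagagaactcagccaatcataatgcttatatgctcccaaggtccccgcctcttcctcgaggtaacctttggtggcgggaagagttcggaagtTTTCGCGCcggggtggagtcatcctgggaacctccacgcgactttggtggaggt
MCM6, chr2:135876394-135876693, minus strand: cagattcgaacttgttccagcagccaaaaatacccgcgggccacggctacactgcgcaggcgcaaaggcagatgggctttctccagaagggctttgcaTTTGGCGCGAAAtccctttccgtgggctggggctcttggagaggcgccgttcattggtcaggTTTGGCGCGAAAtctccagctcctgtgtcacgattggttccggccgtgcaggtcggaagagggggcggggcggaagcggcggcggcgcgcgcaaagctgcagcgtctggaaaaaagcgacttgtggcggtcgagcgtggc
CDC6, chr17:40287629-40287928, plus strand: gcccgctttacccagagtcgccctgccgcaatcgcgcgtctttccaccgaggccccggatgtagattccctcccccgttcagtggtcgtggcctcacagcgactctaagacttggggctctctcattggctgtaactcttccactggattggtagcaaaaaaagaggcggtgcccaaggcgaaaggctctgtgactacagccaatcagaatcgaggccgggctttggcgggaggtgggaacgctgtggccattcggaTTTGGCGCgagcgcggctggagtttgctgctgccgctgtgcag

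Clamp and polymerase genes were mostly higher as well. Their median was 0.28 under SF and 0.35 under Epo, with 11 of 12 above 0 in each. At 1.5-fold were 1 under SF (8.33%, near the 6.9% of all genes) and 4 under Epo (33.3%, against 13.2%). With loess the medians were 0.18 and 0.23. None of this group then passed 1.5-fold under SF, and RFC5, RFC4 and PRIM1 did under Epo, where 9.84% of all genes did. RFC4, a subunit of the clamp loader, read 9.85 under SF and 10.27 under Epo, against 9.26 under GM-CSF (0.59 and 1.01 higher), which loess brought to 0.38 and 0.73. PRIM1, the catalytic subunit of primase, read 6.94 under SF and 7.35 under Epo, against 6.60 under GM-CSF. PCNA, the sliding clamp itself, read 9.20 under SF and 9.29 under Epo, against 8.69 under GM-CSF.

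The clamp loader subunits differed among themselves. RFC5 was higher by 0.40 and 0.67, while RFC3 was at 0.10 and 0.21 as deposited and at −0.11 and −0.09 with loess. RFC1 was at 0.01 and 0.07, and RFC2 was close to the floor. RFC1 was a weak signal as well, between 5.05 and 5.11 on all 5 arrays. Of the polymerase genes, POLA1, the catalytic subunit of polymerase alpha, was higher by 0.36 and 0.57, and POLE2, of polymerase epsilon, by 0.22 and 0.43. POLD1, the catalytic subunit of polymerase delta, was higher by 0.14 and 0.08, within the estimated spread. FEN1, the flap nuclease of lagging strand synthesis, gave 0.34 and 0.27, with loess 0.10 and −0.07, and its other probe set 0.00 and 0.02. LIG1, which joins the Okazaki fragments, was the lower one of this group: 6.50 under SF and 6.53 under Epo, against 6.65 under GM-CSF.

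In nucleotide supply, RRM1, the large subunit of ribonucleotide reductase, read 8.48 under SF and 8.50 under Epo, against 7.87 under GM-CSF. Its differences of 0.61 and 0.62 were close to the 0.72 and 0.47 of its second probe set. With loess the RRM1 differences were 0.36 and 0.28, short of 1.5-fold. RRM2, the small subunit, gave 9.58 under SF and 9.39 under Epo, against 9.39 under GM-CSF, in its brightest probe set. The other RRM2 probe set gave 9.13 under SF and 9.34 under Epo, against 8.75 under GM-CSF, so 1 of them shows an Epo difference of 0.60 and the other of 0.00. With loess the brightest was at −0.04 under SF and −0.31 under Epo. TYMS, thymidylate synthase, was 0.30 and 0.49 higher, with loess 0.13 and 0.28. UNG, which removes uracil from DNA, read 7.57 under SF and 7.84 under Epo, against 7.02 under GM-CSF (0.56 and 0.82 higher). Loess brought UNG to 0.39 and 0.59. The median of this group was 0.43 under SF and 0.56 under Epo, and with loess 0.25 and 0.28.

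The cyclin E and E2F genes included members that read lower under both cytokines. E2F1, the activating factor of the G1/S programme, read 7.45 under SF and 7.26 under Epo, against 7.75 under GM-CSF. Its differences of −0.30 and −0.49 were of the same sign in its second probe set (−0.28 and −0.24), and loess made them −0.50 and −0.74. CDC25A, the phosphatase that activates the cyclin E kinase, read 7.85 under SF and 7.73 under Epo, against 7.94 under GM-CSF, and its other probe set was also lower, by 0.14 in both comparisons. The CDC25A difference under SF (−0.09) was within the estimated spread. CCNE1, cyclin E1, was at 0.14 and 0.29 as deposited and at −0.11 and −0.07 with loess, so its direction depends on the scaling. The median of the 3 measured genes was −0.09 under SF and −0.22 under Epo, and with loess −0.32 and −0.52. The difference from the other groups of genes was not tested, and without the floor, which adds CCNE2 below it, the Epo median was 0.034.

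**Figure D4:**
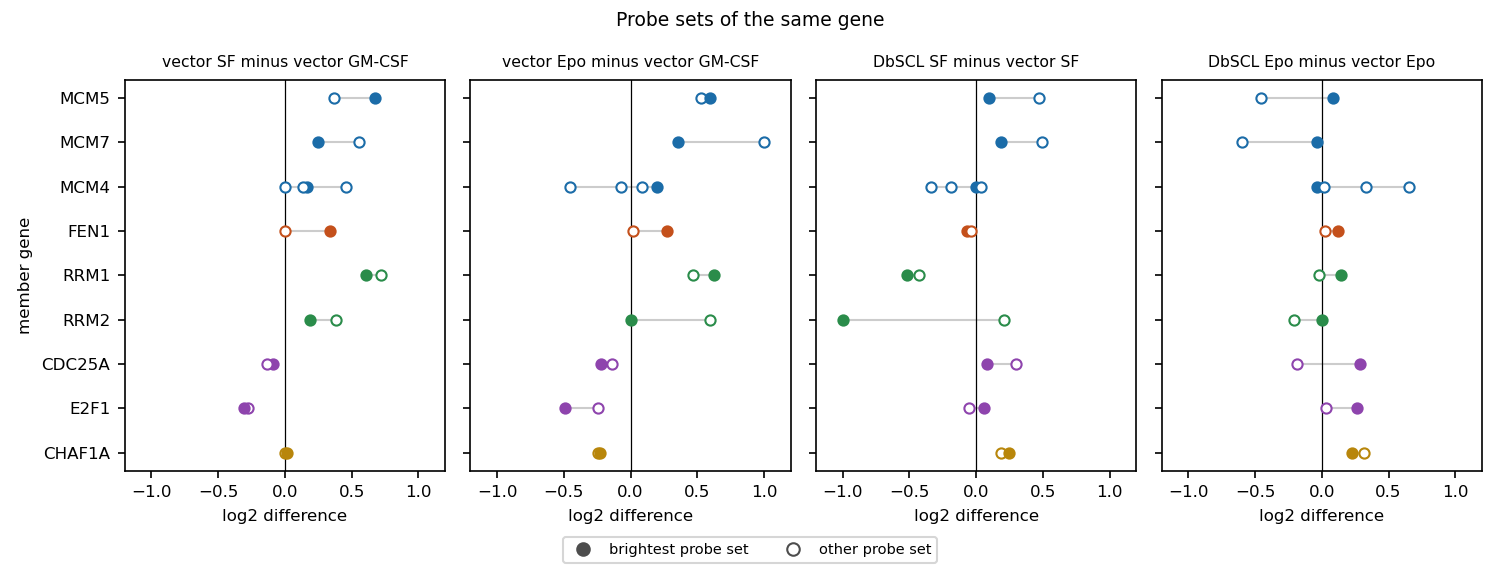
Log2 differences of each probe set above the floor on all 5 arrays, for the 9 members that have more than 1 such probe set, in 4 comparisons. Filled circles are the brightest probe set, which stands for the gene, and open circles the others; E2F1 and CDC25A lie left of 0 in both comparisons with GM-CSF, and RRM2 is split between −0.9998 and 0.21 for DbSCL SF minus vector SF.

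Genes of the same pathway outside the 38 were mostly higher as well, as deposited. Of 64 compared, 7 (10.9%, against 6.9% of all genes) were 1.5-fold higher under SF than under GM-CSF, and 18 (28.1%, against 13.2% of all genes) under Epo, with 0 lower in either. The medians were 0.22 and 0.27, with 52 and 47 of the 64 above 0, against 46.2% and 45.3% of all genes. In bins 8 to 10 of expression, the median of all genes ran from 0.17 to 0.24 under SF and from 0.19 to 0.34 under Epo. These pathway genes and the mitosis genes below were not matched for expression or recomputed with loess. The largest under Epo were ORC3 of the origin recognition complex (1.33), RPA1 of the single-strand binding protein (1.05, other probe set 1.89), the histone chaperone gene NAP1L1 (0.91, others 0.41 to 0.88), CDK4, the cyclin D kinase (0.85), TFDP1, a partner of E2F (0.83, other −0.25), and RBBP4, a histone-binding protein (0.82, other 0.39). Mitosis and G2/M genes gave 6 of 28 (21.4%, against 6.9% of all genes) at 1.5-fold under SF and 9 of 28 (32.1%, against 13.2%) under Epo. Their medians were 0.28 and 0.33, beside 0.30 and 0.49 for the replication genes, and the difference between these lists was not tested.

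Between SF and Epo in vector cells the members differed little. Of 37, 0 were 1.5-fold higher under SF and 2 were lower, against 0.349% and 1.15% of all 8312 genes. The median member differed by −0.11, with 26 below 0 and 10 above, against 38.2% of all genes above 0. The 2 were MCM10, at 7.30 under SF against 7.95 under Epo (−0.64), and HAT1, at 6.93 under SF against 7.54 under Epo (−0.62). Under both loess and quantile normalization 0 members reached 1.5-fold, where 0.809% and 0.656% of all genes were lower.

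DbSCL cells were set against vector cells given the same factor. With SF, most replication genes read near their vector levels: 1 of 37 was 1.5-fold higher and 2 were lower, against 1.42% and 3.68% of all 8450 genes, shares near those of the members (2.7% and 5.41%). The median member differed by −0.07, with 11 above 0 (46.6% of all genes were), 20 below, and 6 at exactly 0. These 6 were MCM4, MCM6, ORC1, RFC4, RFC5 and POLA1. Of all genes 11.8% were at exactly 0 in this comparison, and 16 of the 35 members held 1 value on at least 2 arrays, against 51.1% of all genes. Why arrays share values was not tested, and an exact 0 is not read here as a measured lack of difference.

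The higher gene under SF was CCNE1, at 9.17 in DbSCL cells against 8.50 in vector cells (0.66), the highest CCNE1 signal of the 5 arrays. ASF1A was lower, at 6.59 in DbSCL cells against 7.36 in vector cells (−0.77), but its weaker probe set gave −0.08. RRM2 was lower as well, at 8.58 against 9.58 (−0.9998), while its other probe set read 9.34 in DbSCL cells against 9.13 in vector cells. No call for RRM2 can be drawn from probe sets that disagree by more than 2-fold. RRM1 was 0.52 lower, with 0.43 lower in its second probe set, and MCM10 0.50 lower, both short of 1.5-fold. The beta-actin gap between 3' and 5' probe sets was wider by 1.44 on the DbSCL SF array than on the vector SF array, and its part in these values was not tested.

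Under Epo, 3 of 37 members were 1.5-fold lower in DbSCL cells and 1 was higher, against 2.78% and 0.694% of all 8359 genes. The median member differed by −0.03, with 15 above 0, against 41.5% of all genes, and 21 below. HAT1 read 6.76 in DbSCL cells against 7.54 in vector cells (−0.78). MCM10 read 7.16 in DbSCL cells against 7.95 in vector cells (−0.79). ASF1A read 6.89 in DbSCL cells against 7.68 in vector cells (−0.80), and its weaker probe set gave −0.63. These 3 are also the members that stood highest under Epo against GM-CSF, and both comparisons use the vector Epo array, so the values are not independent. Short of 1.5-fold were MCM2 (8.68 in DbSCL cells against 9.24 in vector cells, −0.56) and CDT1 (5.93 against 6.46, −0.53). For the helicase subunits MCM5 and MCM7 the probe sets were apart: the brightest gave 0.08 and −0.03, and the others −0.46 and −0.60.

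DBF4 was the higher gene under Epo, at 6.58 in DbSCL cells against 5.96 in vector cells (0.62), from its only probe set. ORC1 was 0.52 higher (5.72 in DbSCL cells against 5.20 in vector cells) and LIG1 0.33 higher (6.86 against 6.53). The 28S signal was 0.89 higher on the DbSCL Epo array than on the vector Epo array, and its part was not tested.

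**Figure D5:**
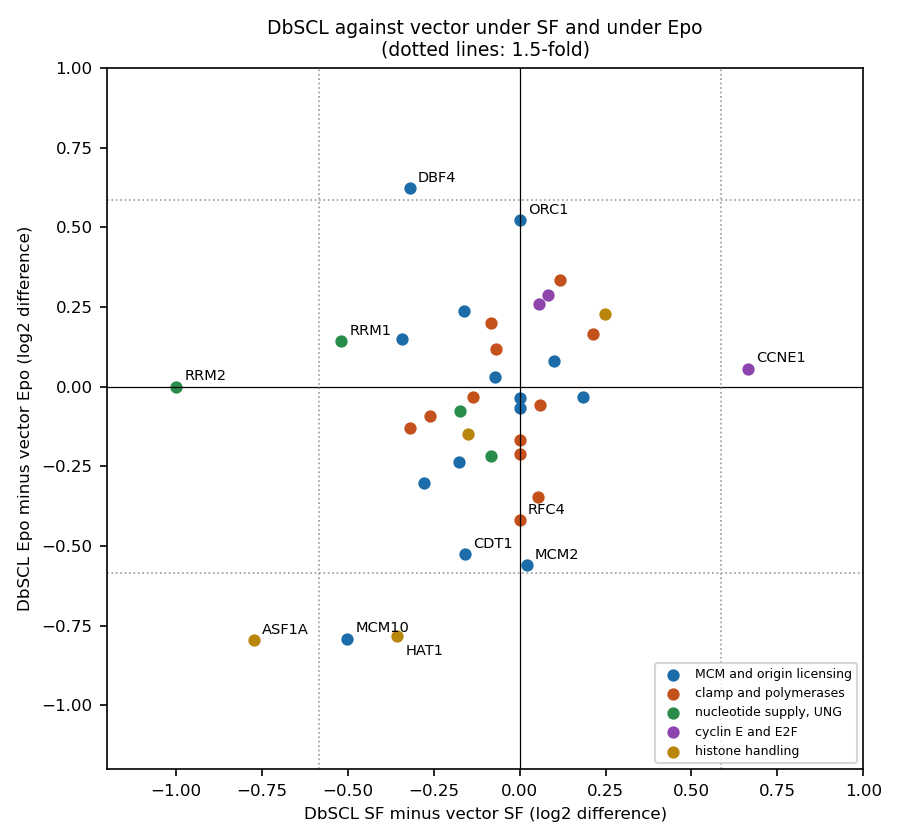
Log2 difference of DbSCL minus vector under SF (horizontal) and under Epo (vertical) for the 37 members compared, coloured by role, with dotted lines at 1.5-fold. ASF1A lies beyond the line on both axes (−0.77 and −0.80), while DBF4 is at −0.32 under SF and 0.62 under Epo.

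The DbSCL differences under SF and under Epo use separate arrays. Below 0 in both were 12 of 37 members, above 0 in both 7, and of opposite sign 11, against 25%, 23.6% and 28.9% of all 8272 genes. At 1.5-fold under both cytokines 1 member was lower, ASF1A, and 0 were higher, against 0.556% and 0.0604% of all genes. With the mean of all probe sets ASF1A no longer passed under SF. Next to it, MCM10 (−0.50 and −0.79) and HAT1 (−0.36 and −0.78) were lower under both from 1 probe set each. Above 0 under both were all 3 measured cyclin E and E2F genes: CCNE1 (0.66 and 0.06), E2F1 (0.06 and 0.26) and CDC25A (0.08 and 0.29). Second probe sets gave the opposite sign for E2F1 under SF (−0.06) and for CDC25A under Epo (−0.18).

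Within DbSCL cells, SF was set against Epo. Of 36 members 4 were 1.5-fold lower under SF and 0 were higher, against 2.8% and 0.909% of all 8472 genes. DBF4 read 5.52 under SF against 6.58 under Epo (−1.06), past 2-fold, where 0.201% of all genes were lower. RRM1 read 7.96 under SF against 8.64 under Epo (−0.68), with −0.16 in its other probe set. GINS1 read 6.64 under SF against 7.27 under Epo (−0.63). RRM2 was at −0.81, with 0.21 in its other probe set. The median member differed by −0.10, close to the −0.11 between SF and Epo in vector cells, and 8 members were above 0, against 46% of all genes.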

How the data were processed

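The deposited table holds 1 log2 signal per Affymetrix probe set and array for 5 arrays of biotin-labelled total RNA, per the labels. The authors summarised the signals, and method, normalization and versions are not given in the sources used here. The range of the values, 2.08 to 13.77, fits a log2 scale. Column medians lay between 4.89 and 4.98, so the values were used as deposited. Of 22283 probe sets 68 were controls, and 19065 others had 1 gene symbol. All 38 member symbols were current in RefSeq.

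Differences, counts and medians were computed with Python 3.11.15, numpy 2.4.6 and pandas 2.3.3, and tested on simulated data. A gene entered a comparison when 1 of its 2 arrays was above the floor. Alternatives were quantile and cyclic loess normalization (limma 3.58.1, R 4.3.3), the mean of all probe sets, probe sets without a suffix of shared sequence, no floor, and a floor at the 60th percentile. Genes named were the members, and up to 6 of the other pathway genes by size. The members and lists were chosen with earlier results of these data known. The number of arrays, 1 a group, limits the precision.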

Additional observations from a re-analysis of the deposited data

Results flagged for a closer look

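For 2 members the DbSCL differences were of opposite sign under SF and under Epo, each larger than the spread estimated at their expression level, and the difference between the cytokines was not tested. DBF4 was −0.32 under SF and 0.62 under Epo. CDC6 was −0.16 under SF and 0.24 under Epo, but each rests on a signal at or below the floor: DbSCL cells under SF read 4.28, below it, and vector cells under Epo 4.45, at it. The second CDC6 probe set gave 0.00 and −0.01, without the opposite signs.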

How the results depend on the processing

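Of 120 medians and counts of members recomputed under the 6 alternatives, 100 stayed close to the values given and 20 moved, and in the 1220 recomputed values of single members no 1.5-fold difference changed sign. Quantile normalization left 4 members higher under SF than under GM-CSF, against 4.55% of all genes, in place of 9. Under Epo it left 8 higher and 1 lower (median 0.25), against 8.53% and 4.54% of all genes, in place of 16 and 0. Cyclic loess left 4 under SF, against 5.2% of all genes, and 10 with 1 lower under Epo (median 0.28), against 9.84% and 3.07%. Under both, 0 members were lower for vector SF against vector Epo, in place of 2, where 0.656% (quantile) and 0.809% (loess) of all genes were lower. With the mean of all probe sets, 0 members were lower for DbSCL against vector under SF (2.42% of all genes) and 0 under both cytokines. For SF against Epo in DbSCL cells 2 were lower, against 1.77% of all genes. Probe sets without a shared-sequence suffix exist for fewer members, of which 23 were compared. They gave 4 higher under SF and 9 under Epo against GM-CSF, beside 6.99% and 12.6% of all genes. For DbSCL against vector they gave 1 lower under SF (3.36% of all genes), 0 higher under Epo (0.486%) and 0 lower under both. For SF against Epo in DbSCL cells they gave 1 higher and 2 lower, against 0.857% and 2.86% of all genes. Without the floor the cyclin E and E2F median under Epo against GM-CSF was 0.034, through CCNE2. Beyond that smaller set, the cause was not tested. With 1 array a group the replicate numbers pair no samples, and leaving out an array removes its group. DbSCL and vector cells can be matched by cytokine, as 2 pairs, but a fit with cytokine as a block was not made.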

Other observations

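Outside the 38 members, E2F3, a further activating E2F, read 8.28 in DbSCL cells against 9.09 in vector cells under SF (−0.81), with −0.69 in its other probe set. Under Epo it read 8.97 in DbSCL cells against 8.86 in vector cells. CCNA2, cyclin A2, read 6.25 in DbSCL cells against 7.14 in vector cells under SF (−0.89), with −0.27 in its other probe set, and 7.03 against 7.08 under Epo. NASP, a histone chaperone gene, read 8.92 in DbSCL cells against 8.12 in vector cells under Epo (0.80), with 0.12 in its other probe set. These genes were named after their values were seen, and none of the differences has a replicate.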
